A study of Mus musculus with 12 samples.

Results

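A set of 9 genes of hyaluronan synthesis, binding and breakdown was followed in mouse aortas after infusion of porcine pancreatic elastase (PPE): the synthases Has1, Has2 and Has3, the breakdown genes Hyal1, Hyal2 and Cemip, and the binding genes Cd44, Vcan and Tnfaip6. These 9 of the 24341 genes named in the count table were taken as a named list, chosen with earlier results of the same libraries known. Each was represented by the RefSeq row with the highest mean level over all 12 libraries, in counts scaled to 1000000 per library (CPM). That mean was the measured value the rule used, and it decided nothing, since only 1 row of each gene held counts. Because the list was drawn up with these results known, the tests below describe the 9 genes and are not independent evidence for them. All 9 passed the filter on low counts. The libraries came from 12 male C57BL/6J mice, aged 10 weeks at the start. The infrarenal aorta was infused with saline and collected on day 7 (4 animals, called saline), or infused with PPE and collected on day 7 (4 animals, PPE week 1) or day 14 (4 animals, PPE week 2). The saline group of day 7 served both PPE groups, so PPE week 2 differed from saline in the day of collection as well as in the agent. The infusion is a surgical model in young males of 1 strain, and no deletion or transgene is named in the labels.

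Hyaluronan is a long, unsulfated sugar chain of the extracellular matrix that the HAS enzymes assemble at the plasma membrane from activated precursor sugars and extrude into the space around the cell. HYAL2 at the cell surface and HYAL1 in the lysosome cut it in turn, and CEMIP is a further protein needed for its breakdown in several cell types. CD44 is its main cell surface receptor, versican (Vcan) is a proteoglycan that binds it in the vessel wall, and TSG-6 (Tnfaip6) binds it and links it to heavy chains of inter-alpha-inhibitor.

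In these aortas Has2 counts fell between week 1 and week 2 of PPE to below every saline library, and Hyal1 counts fell at week 1 and rose again by week 2. PPE week 1 against saline gave 1 of the 9 genes lower (Hyal1) and 0 higher, where 7.89% of the 12756 rows tested were called in either direction (3.98% higher, 3.91% lower). PPE week 2 against saline gave 1 lower (Has2) and 0 higher, where 2.65% of rows were called (1.30% higher, 1.35% lower). PPE week 2 against PPE week 1 gave 1 higher (Hyal1) and 1 lower (Has2), where 6.59% of rows were called (3.77% higher, 2.82% lower). A call means an adjusted p under 0.05 in edgeR's quasi-likelihood test with Benjamini-Hochberg adjustment over all 12756 rows. The median log2 fold change over the 9 genes was -0.24, -0.52 and -0.35 in the 3 comparisons in this order, and over all rows tested it was 0.00, 0.05 and 0.02. Over all rows 508 were higher and 499 lower at PPE week 1, 166 and 172 at PPE week 2, and 481 and 360 between the PPE weeks. Scaling by total count alone gave 1034 and 195, 1611 and 27, and 682 and 75.

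Groups whose libraries did not overlap were counted separately. At PPE week 1 against saline 1 of the 9 genes had all 4 libraries below (Hyal1, against 9.01% of rows) and 0 had all above (12.1% of rows), and 21.1% of rows did either. At PPE week 2 against saline 1 had all 4 below (Has2, 4.44% of rows) and 1 all above (Hyal2, 4.55% of rows), and 8.99% of rows did either. At PPE week 2 against PPE week 1 1 had all 4 below (Has2, 8.68% of rows) and 0 all above (7.24% of rows), and 15.9% of rows did either.

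Total counts per library ran from 8343313 to 12269131, and the row of the ribosomal RNA precursor took 19.5% to 49.9% of them. Its share was 41.3% ± 6.48 (SD, n = 4) for saline, 30.4% ± 6.34 for PPE week 1 and 20.4% ± 1.13 for PPE week 2. It was lower than in saline at both times (exact two-sided permutation test, p = 0.0286 in each, the smallest that 4 against 4 allows), so this share moved with the groups. Summed levels of 8 smooth muscle markers were 5864 to 7772 CPM in the saline libraries, ranged from 1714 to 3154 CPM in those of PPE week 1, and stood at 4879 to 10989 CPM in PPE week 2, and 6 of the 8 were lower at PPE week 1 by the same edgeR test. Summed levels of 7 macrophage and monocyte markers were 1864 to 2244, 3272 to 4223 and 1052 to 2695 CPM in the same order. Itgam, a macrophage marker, and Pecam1, an endothelial marker, had 0 counts in every library. Other markers of these cell types, Csf1r and Cdh5, stood at means of 325 and 224 CPM in saline. A row at 0 therefore need not mean that its gene was not expressed. The tissue was sequenced in bulk, so fewer cells of a type and less RNA per cell cannot be told apart in any result below.

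Has2, the synthase most often tied to hyaluronan made by vascular smooth muscle cells and fibroblasts, is on chromosome 15 (56665627 to 56694546, minus strand, mm10). In saline replicates 1 to 4 it stood at 22.3, 16.7, 15.3 and 12.3 CPM. The 4 libraries of PPE week 1 held 19.3, 33.4, 27.2 and 26.1 CPM, and at PPE week 2 they held 5.22, 4.60, 0.350 and 1.87 CPM. All 4 libraries of PPE week 2 were below all 8 others, whereas the week 1 and saline libraries overlapped, replicate 1 of week 1 lying inside the saline range. The lowest value, in replicate 3 of PPE week 2, rests on 4 counts, and the other libraries of that group held 56, 48 and 26 counts.

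Has2 fell 8.82-fold from PPE week 1 to PPE week 2 (log2 fold change -3.14 ± 0.53 SE, edgeR adjusted p = 0.00289). Against saline it was 5.55-fold lower at PPE week 2 (-2.47 ± 0.52, edgeR adjusted p = 0.0192). The difference at PPE week 1 did not pass the test (0.67 ± 0.48, edgeR adjusted p = 0.486). The authors' deposited table lists a log2 fold change of 0.61 (adjusted p = 0.0823) at week 1 and -1.48 (adjusted p = 0.00644) at week 2, both against saline. That week 2 value lay nearer 0 than those of the 12 alternatives (-3.07 to -1.97) and of the left-out libraries (-2.88 to -2.10). It may have been computed in another way, which was not tested. The call against saline ended without saline replicate 1 (adjusted p = 0.0556), without PPE week 2 replicate 4 (adjusted p = 0.0567), with only the 8 libraries compared (adjusted p = 0.0980) and with the ribosomal RNA precursor share in the model (adjusted p = 0.758). The fit with that share called 0 rows of any kind in this comparison. Limma-voom moved the Has2 value to -3.07. The call against PPE week 1 was kept under all 12 alternatives and all 12 left-out libraries, with adjusted p from 1.03e-07 to 0.0495. Of 6 fibroblast markers, 3 were called lower at PPE week 2 than in saline, while Col1a1 (0.09) and Pi16 (0.20) lay above 0 and were not called. At PPE week 1, where Has2 was not called, 4 of the 6 were lower than in saline. Col1a1 (0.40) and Pdgfra (0.16) lay above 0 there and were not called. From PPE week 1 to PPE week 2, where Has2 fell, 0 of the 6 were called lower and 1 higher. The part of these markers in the Has2 result was not tested. The Has2 row shares 182 exon bases with the antisense gene Has2os on the opposite strand, and the library kit does not mark strand, so reads from those bases cannot be told apart.

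**Figure D1:**
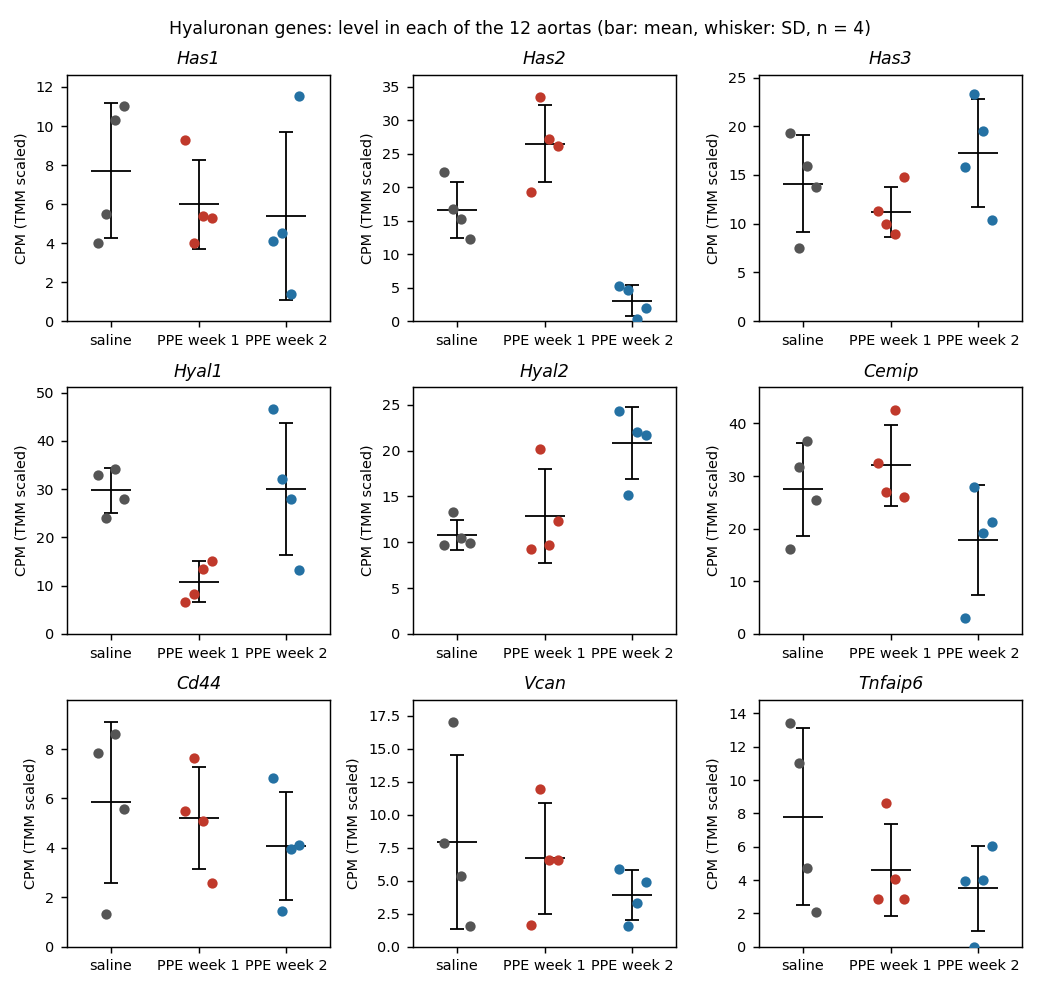
Level of each of the 9 genes (y axes, CPM after TMM scaling, each from 0 on its own scale) in the 4 libraries of saline, PPE week 1 and PPE week 2 (points), with the mean (bar) and SD (whisker). The 4 Has2 points of PPE week 2 (0.350 to 5.22 CPM) lie below all others, and the 4 Hyal1 points of PPE week 1 (6.52 to 15.2 CPM) lie below those of saline.

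Has1 and Has3, the other synthases, passed the test in none of the 3 comparisons. Has3, on chromosome 8 (106870242 to 106882902, plus strand), held 19.3, 7.45, 15.9 and 13.7 CPM in saline. It held 11.3, 9.95, 8.90 and 14.8 CPM at PPE week 1, and 15.9, 23.3, 19.5 and 10.4 CPM at PPE week 2. The groups overlapped throughout, with log2 fold changes of -0.33 ± 0.34 and 0.29 ± 0.34 against saline at weeks 1 and 2 (edgeR adjusted p = 0.662 and 0.747). Has1, on chromosome 17 (17833691 to 17855589, minus strand), held 4.00, 5.51, 10.3 and 11.0 CPM in saline. It held 9.27, 3.98, 5.39 and 5.29 CPM at PPE week 1, and 4.10, 4.51, 1.40 and 11.5 CPM at PPE week 2. The highest and the lowest Has1 values of all 12 libraries were both in PPE week 2. Its log2 fold changes against saline were -0.36 ± 0.57 and -0.51 ± 0.57 (edgeR adjusted p = 0.800 and 0.730). In GENCODE's gene models 352 exon bases of Has3 overlap Chtf8 on the opposite strand, although the RefSeq row of Has3 shares none with another row.

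The make-up of the synthase counts differed in PPE week 2. Has2 gave 33.2% to 56.3% of the Has1, Has2 and Has3 counts of a saline library (mean 43.8%), 48.4% to 70.6% at PPE week 1 (mean 60.3%) and 1.65% to 20.7% at PPE week 2 (mean 11.1%). In PPE week 2 replicate 3 the share was 1.65% of 243 counts, with an exact 95% binomial interval of 0.450% to 4.16%, which covers counting error only and takes each count as independent. With counts halved, as a count of both mates would need, the same library held 2 of 122 counts and an interval of 0.199% to 5.80%. Has3 gave the most synthase counts in 3 of the 4 libraries of PPE week 2, at 63.0%, 71.9% and 91.8%, and in replicate 4 Has1 did, at 48.5% against 43.6% for Has3. These are shares of counts, not corrected for the length of the rows, and they restate the Has2 result within each library with no further test.

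**Figure D2:**
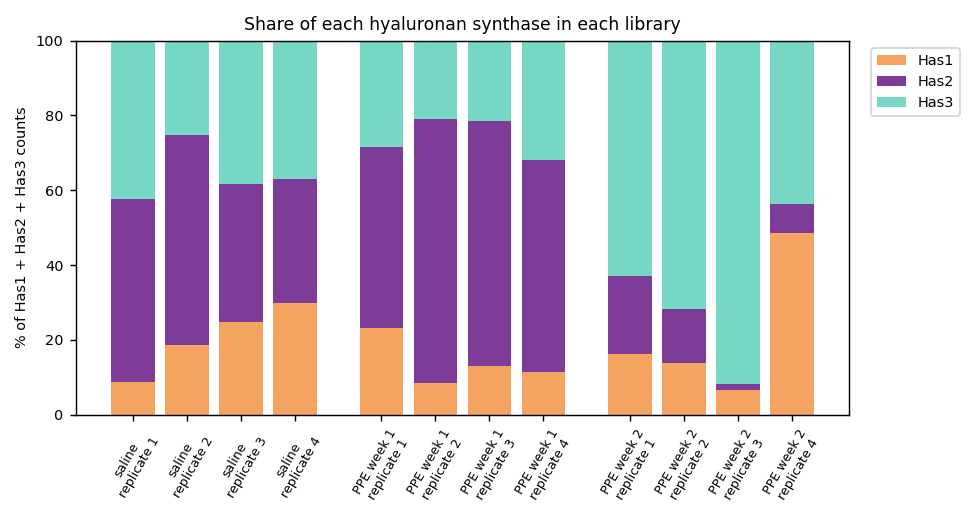
Share of Has1, Has2 and Has3 in the counts of the 3 synthases (y axis, %, stacked to 100) in each of the 12 libraries (x axis). The Has2 share lies between 33.2% and 70.6% in the saline and PPE week 1 libraries and between 1.65% and 20.7% in those of PPE week 2.

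Hyal1 and Hyal2, the lysosomal and the cell surface hyaluronidase, are neighbours on chromosome 9 and read in the same direction, their RefSeq starts 7787 bases apart. Their promoters are shown because the 2 genes lie side by side and their mean levels ordered the groups differently. Hyal2 passed the test in no comparison, and the difference between the 2 genes was not tested. The 250 bases before each start are printed 5′ to 3′ on the plus strand (GRCm38.p6, from RefSeq), Hyal1 at chr9:107576700-107576949 and Hyal2 at chr9:107568913-107569162. Capitals mark matches to 6 motifs searched on both strands, namely the TATA box (TATAAA), the CCAAT box (CCAAT), the GC box (GGGCGG), the AP-1 site (TGANTCA), the NF-kB site (GGG, any 5 bases, CC) and the hypoxia response core (ACGTG).
Hyal1: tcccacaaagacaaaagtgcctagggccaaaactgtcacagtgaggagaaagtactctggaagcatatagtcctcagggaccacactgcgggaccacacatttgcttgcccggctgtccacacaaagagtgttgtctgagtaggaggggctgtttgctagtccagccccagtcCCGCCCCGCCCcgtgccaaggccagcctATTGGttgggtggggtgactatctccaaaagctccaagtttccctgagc
Hyal2: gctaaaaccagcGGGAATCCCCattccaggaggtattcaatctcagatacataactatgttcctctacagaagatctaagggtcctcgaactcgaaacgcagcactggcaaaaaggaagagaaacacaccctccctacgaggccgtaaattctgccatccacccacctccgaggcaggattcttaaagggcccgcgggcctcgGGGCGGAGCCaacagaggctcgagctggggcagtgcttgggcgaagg
The Hyal1 window held 1 CCAAT box, read on the minus strand, and 2 GC boxes that overlap each other. The Hyal2 window held 1 GC box and 2 NF-kB sites, of which the site nearer the start overlaps the GC box. Of 32851 mouse promoter windows of the same length, 33.85% held a CCAAT box, 32.74% a GC box and 45.8% an NF-kB site, so each match is a common one. The TATA box (12.37% of windows), the AP-1 site (6.749%) and the hypoxia response core (16.57%) had no match in either window, which says only that these letters are not in it. No promoter of Has2 or Has3 is shown.

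Hyal1 stood at 32.8, 24.0, 34.1 and 28.0 CPM in saline replicates 1 to 4. In PPE week 1 it stood at 6.52, 8.18, 13.5 and 15.2 CPM, and at PPE week 2 at 46.6, 32.0, 28.0 and 13.2 CPM. All 4 libraries of PPE week 1 were below all 4 of saline, while those of PPE week 2 spanned the saline range on both sides, with replicate 4 inside the range of PPE week 1. The gene fell 2.73-fold at PPE week 1 against saline (-1.45 ± 0.35, edgeR adjusted p = 0.0187) and rose 2.76-fold from PPE week 1 to PPE week 2 (1.46 ± 0.35, edgeR adjusted p = 0.0201). At PPE week 2 against saline it differed by 0.01 ± 0.34 (edgeR adjusted p = 0.994). The authors' deposited table lists -1.38 (adjusted p = 1.82e-05) at week 1 and 0.02 (adjusted p = 0.987) at week 2.

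The log2 fold change of Hyal1 at week 1 stayed between -1.67 and -1.16 under the 12 alternatives. Its call ended when libraries were scaled by total count alone (-1.16, adjusted p = 0.0579) and with the ribosomal RNA precursor share in the model (-1.67, adjusted p = 0.122). It also ended without saline replicate 3, PPE week 1 replicate 1 or PPE week 1 replicate 2 (adjusted p = 0.0534, 0.0638 and 0.0709). The rise to week 2 stayed between 1.28 and 1.64 under the same alternatives and between 1.16 and 1.70 with libraries left out. It lost its call with only the 8 libraries compared (adjusted p = 0.0613) and with that share in the model (adjusted p = 0.238). The call was also lost without PPE week 1 replicate 1, PPE week 1 replicate 2 or PPE week 2 replicate 1 (adjusted p = 0.0718, 0.0812 and 0.0620). In the group where Hyal1 was low, 6 of the 8 smooth muscle markers were lower too, with Acta2 at 1497 CPM against 3569 CPM in saline. Des (adjusted p = 0.0728) and Smtn (adjusted p = 0.981) did not pass the edgeR test. The Smtn row was near the floor, at mean 0.83 CPM in saline and 0.78 CPM at PPE week 1 (SE 1.33), and says little about a change. In the same comparison 4 of 6 fibroblast markers were lower, while Col1a1 (0.40) and Pdgfra (0.16) lay above 0 and were not called. The part of these markers in the Hyal1 result was not tested. The Hyal1 row (107576950 to 107581699) shares 819 exon bases with the row of Naa80, an actin acetyltransferase gene on the same strand. In GENCODE's gene models 1920 exon bases of Hyal1 overlap Naa80 and 159 overlap Hyal3, also on the same strand. How reads of shared bases were counted is not given in the sources used here. Naa80 itself differed by -0.61 ± 0.25 at PPE week 1 against saline (edgeR adjusted p = 0.147) and rose from 20.0 to 42.6 CPM between the PPE weeks (1.09 ± 0.25, edgeR adjusted p = 0.0149).

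**Figure D3:**
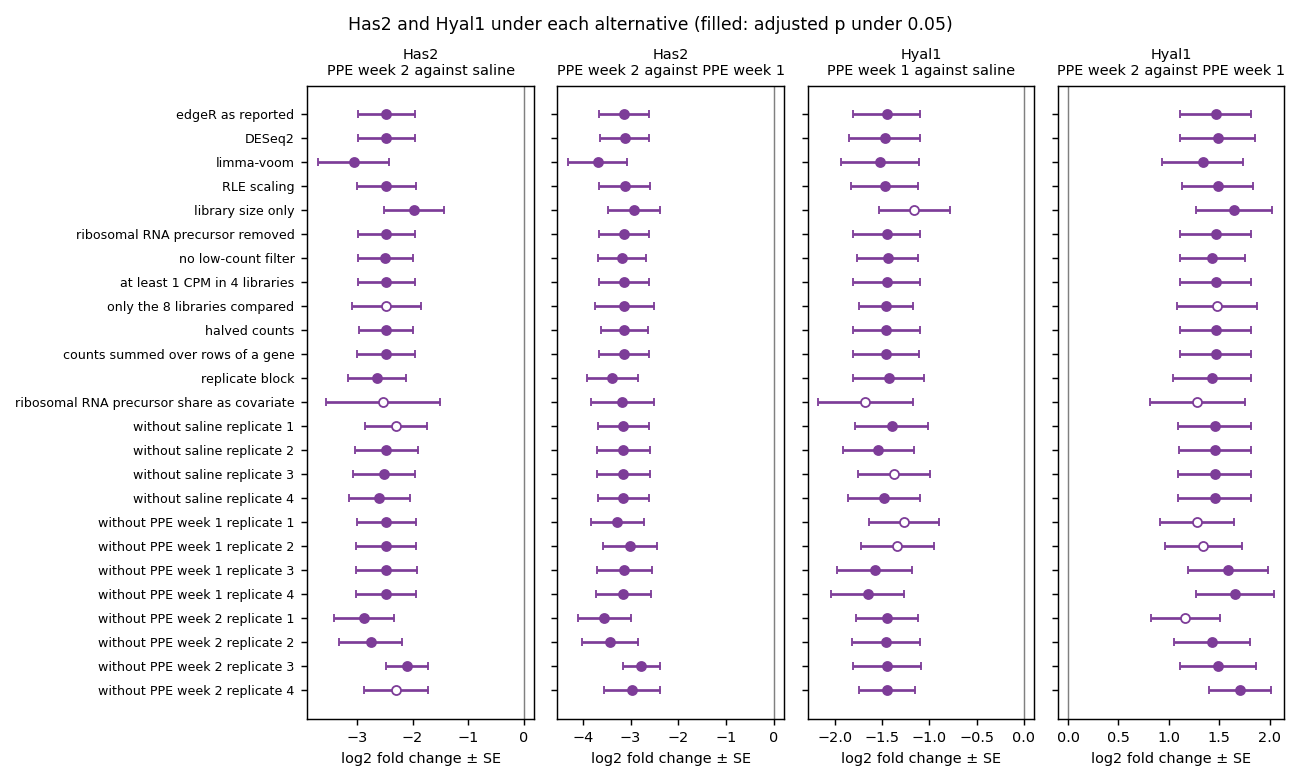
Log2 fold change (x axes, point) and SE (whisker) of Has2 and Hyal1 in the 4 comparisons called, as reported and under 12 alternatives and 12 left-out libraries (y axis), filled where the adjusted p was under 0.05. All points of Has2 at PPE week 2 against PPE week 1 are filled, from -3.69 to -2.78, and each of the other 3 panels has open points.

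Hyal2 spans 107567873 to 107572778 in RefSeq's gene table, a span that opens upstream of 107569163, the start behind the promoter shown. It held 9.66, 13.3, 10.5 and 9.97 CPM in saline, 9.27, 20.2, 9.65 and 12.4 CPM at PPE week 1, and 24.3, 15.2, 22.1 and 21.7 CPM at PPE week 2. The 4 values of PPE week 2 were all above those of saline, and replicate 2 of PPE week 1 lay among them. At week 1 the difference from saline was 0.25 ± 0.31 (edgeR adjusted p = 0.733). That at PPE week 2 did not pass the adjusted threshold (0.94 ± 0.31, edgeR unadjusted p = 0.00685, adjusted p = 0.115). It passed only when libraries were scaled by total count alone (1.45, adjusted p = 0.00661), a scaling that shifted the median of all rows by 0.54 in this comparison.

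Cemip, on chromosome 7 (83932857 to 84086693, minus strand), held 16.2, 31.7, 36.6 and 25.4 CPM in saline. The PPE week 1 libraries held 32.5, 27.0, 42.6 and 25.9 CPM, and those of PPE week 2 held 3.08, 27.9, 19.1 and 21.3 CPM. The groups overlapped apart from 1 low library, PPE week 2 replicate 1. Its log2 fold changes were 0.22 ± 0.46 and -0.62 ± 0.47 against saline at weeks 1 and 2, neither of which passed the test (edgeR adjusted p = 0.855 and 0.569).

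**Figure D4:**
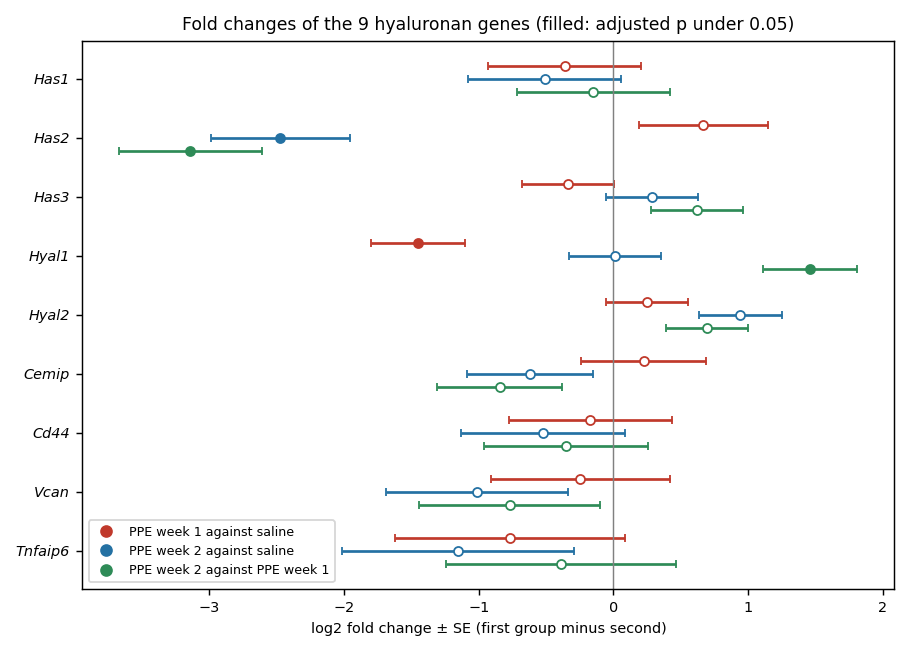
Log2 fold change (x axis, point) and SE (whisker) of the 9 genes (y axis) in the 3 comparisons (colours), filled where the adjusted p was under 0.05. The 4 filled points are Has2 at -2.47 and -3.14 and Hyal1 at -1.45 and 1.46.

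The 3 binding genes passed the test in no comparison, and their log2 fold changes were all below 0. They ran from -0.77 to -0.17 at PPE week 1 and from -1.15 to -0.52 at PPE week 2, both against the same saline libraries. Cd44, on chromosome 2 (102811141 to 102901669, minus strand), held 7.84, 1.34, 8.62 and 5.56 CPM in saline. It held 5.51, 7.63, 5.09 and 2.59 CPM at PPE week 1, and 6.81, 1.44, 3.94 and 4.10 CPM at PPE week 2. All 3 groups overlapped, and edgeR gave adjusted p of 0.920 and 0.742 against saline at weeks 1 and 2. The sign of its week 1 value (-0.17) was not kept when libraries were scaled by total count alone (0.06). Of 6 Cd44 rows 1 held counts. That row has 1873 exon bases found in no other Cd44 row, of which 1389 are noncoding bases at its 3′ end (102811141 to 102812529), and the 5 rows without such bases held 0 counts. The Cd44 values therefore come from a row with 3 coding segments (126, 117 and 126 bases) found in no other Cd44 row. They are not the sum of all Cd44 transcripts.

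Vcan, on chromosome 13 (89655309 to 89743027, minus strand), held 7.84, 17.0, 5.36 and 1.55 CPM in saline. The next group, PPE week 1, held 1.65, 11.9, 6.58 and 6.59 CPM, and PPE week 2 held 5.88, 1.53, 3.33 and 4.89 CPM. Each group spanned several-fold and the groups overlapped, with log2 fold changes of -0.24 ± 0.67 and -1.01 ± 0.68 (edgeR adjusted p = 0.897 and 0.499), and total-count scaling turned the first to 0.14. Of 5 Vcan rows only the shortest coding form held counts, and its 979 own exon bases (89711226 to 89712204, of which 62 are coding) lie in an intron of the 4 other rows. A longer row has 1203 bases of its own and held 0 counts. Reads of unspliced versican RNA would fall on the same bases and cannot be told apart, so these values are no measure of full-length versican.

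Tnfaip6, on chromosome 2 (52038113 to 52056681, plus strand), held 13.4, 11.0, 4.70 and 2.07 CPM in saline. Libraries of PPE week 1 held 2.85, 8.63, 4.04 and 2.89 CPM, and those of PPE week 2 held 3.92, 0, 4.03 and 6.05 CPM. The saline libraries alone covered most of the range, and the log2 fold changes of -0.77 ± 0.85 and -1.15 ± 0.86 had adjusted p of 0.695 and 0.562 in edgeR. The SEs of Vcan and Tnfaip6, from 0.67 to 0.86, were the widest among the 9 genes. Between the PPE weeks the 7 genes other than Has2 and Hyal1 had log2 fold changes from -0.84 (Cemip) to 0.70 (Hyal2), and the lowest edgeR adjusted p among them was 0.201 (Hyal2).

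Levels of different genes were compared as CPM per 1000 own exon bases of the row, which assumes that reads on bases shared with other rows were not counted. In saline Hyal1 was highest, at 13.5 ± 2.12 (SD, n = 4), followed by the Vcan row at 8.10 ± 6.71, Hyal2 at 5.72 ± 0.87 and Tnfaip6 at 4.56 ± 3.10. Then came Has2 at 4.10 ± 1.03, Cemip at 3.86 ± 1.24, Has1 at 3.68 ± 1.66, Cd44 at 3.12 ± 1.75 and Has3 at 2.39 ± 0.85. Each gene's libraries overlapped with those of the next gene in that order, and the same was true of the order at PPE week 1. In that group the Vcan row stood at 6.83 ± 4.29, Hyal2 at 6.81 ± 2.69, Has2 at 6.53 ± 1.43 and Hyal1 at 4.94 ± 1.89 on this scale, with the other 5 genes between 1.90 and 4.50. At PPE week 2 Hyal1 (13.7 ± 6.26) and Hyal2 (11.0 ± 2.09) stood above the remaining 7, Hyal2 and the Vcan row (3.99 ± 1.94) being the only neighbours whose libraries did not overlap. Has2 was last at PPE week 2, at 0.743 ± 0.566. Divided by all exon bases of the row instead, a choice added after the data were seen, the saline levels of the Vcan row (3.49 ± 2.89), Cd44 (1.04 ± 0.58) and Hyal1 (9.86 ± 1.54) were lower and the Vcan row moved from second place to number 7. Hyal1 stayed highest in saline, Hyal2 came first at PPE week 1 and week 2, and Has2 stayed last at PPE week 2 (0.711 ± 0.542).

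Of 47 other genes of the hyaluronan pathway listed from general knowledge, 33 were tested. At PPE week 1 against saline 1 rose and 2 fell, at PPE week 2 against saline 0 rose and 1 fell, and from PPE week 1 to PPE week 2 0 rose and 4 fell, with median log2 fold changes of 0.16, -0.18 and -0.10. These are 9.09%, 3.03% and 12.1% of the 33, beside 7.89%, 2.65% and 6.59% of all rows tested. Scaling by total count alone gave 4 higher and 2 lower, 5 and 0, and 1 and 0, and fitting only the 8 libraries compared gave 6 and 2, 0 and 0, and 0 and 0. Among the other binding and receptor genes, Itih2, which encodes a heavy chain of inter-alpha-inhibitor, fell from 50.1 ± 18.6 CPM in saline to 11.5 ± 4.64 CPM at PPE week 1 (-2.12 ± 0.39, edgeR adjusted p = 0.00483). Hmmr, a hyaluronan-binding protein of the mitotic spindle, fell from 21.8 ± 2.38 to 8.17 ± 5.29 CPM between the PPE weeks (-1.41 ± 0.38, edgeR adjusted p = 0.0355), beside 11.4 ± 2.03 CPM in saline. Ptx3, a pentraxin that binds inter-alpha-inhibitor heavy chains in hyaluronan-rich matrix, fell from 17.8 ± 8.54 to 5.52 ± 2.76 CPM over the same step (-1.68 ± 0.47, edgeR adjusted p = 0.0400), beside 6.55 ± 2.51 CPM in saline. For both genes all 4 libraries of PPE week 1 were above those of saline, and neither difference from saline passed at week 1 (edgeR adjusted p = 0.146 and 0.0689) or week 2 (0.602 and 0.851).

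Adamts1, a protease that cleaves versican, was lower than in saline at both times, from 155 ± 20.4 CPM to 74.7 ± 15.7 CPM at PPE week 1 and 84.3 ± 21.0 CPM at PPE week 2 (-1.05 ± 0.19 and -0.88 ± 0.19, edgeR adjusted p = 0.00388 and 0.0208). Both comparisons use the same saline libraries. It was the one of 6 versican-cleaving proteases that passed the test. Ezr, which encodes ezrin, a linker of CD44 to actin, rose from 35.1 ± 11.9 to 70.6 ± 10.6 CPM at PPE week 1 (1.01 ± 0.27, edgeR adjusted p = 0.0290). Gusb, a lysosomal enzyme that removes sugars from hyaluronan fragments, fell by 0.70 ± 0.18 on the log2 scale from PPE week 1 to PPE week 2 (edgeR adjusted p = 0.0318), and Msn, which encodes moesin, a further CD44 linker, fell by 0.45 ± 0.12 (edgeR adjusted p = 0.0404). None of the 6 tested genes for precursor sugars passed the test in any of the 3 comparisons. For 0, 1 and 1 of them edgeR gave an unadjusted p under 0.05, beside 21.7%, 16.6% and 20.5% of all rows tested. Over all 33 wider pathway genes tested these shares were 27.3%, 15.2% and 30.3%. For the 15 other binding and receptor genes among them they were 46.7%, 20.0% and 40.0%.

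With the ribosomal RNA precursor share in the model the calls of Itih2, Ezr, Hmmr, Ptx3, Gusb, Msn and Adamts1 at PPE week 2 were lost, and that of Adamts1 at PPE week 1 was kept. Few rows of any kind were called in that fit (23 higher and 59 lower, 0 and 0, and 54 and 15). The log2 fold changes in it were -2.28 for Itih2, 1.41 for Ezr, -1.37 for Hmmr, -2.12 for Ptx3, -0.57 for Gusb, -0.49 for Msn and -1.28 for Adamts1 at PPE week 2. Those of Ezr, Hmmr, Ptx3, Gusb, Msn and Adamts1 at PPE week 2 were also lost on leaving out single libraries, in 5 to 8 of 12 cases each. Between the PPE weeks, where Hmmr, Ptx3, Gusb and Msn fell, the summed macrophage and monocyte markers went from 3272 to 4223 CPM down to 1052 to 2695 CPM, and 2 of 6 tested passed the test. At PPE week 1, where Ezr rose and Itih2 and Adamts1 fell, summed T and NK cell markers were 60.6 to 84.4 CPM, against 5.75 to 16.5 CPM in saline, and 2 of the 4 tested were called higher (Cd3g and Ncr1). Summed neutrophil markers were 30.1 to 123 CPM there against 2.98 to 11.7 CPM, with neither of the 2 tested passing, and summed mesothelial markers 4.87 to 26.0 CPM against 0 to 2.26 CPM, with the 1 tested (Wt1) not passing. Of 6 macrophage and monocyte markers tested, 1 was called higher (Cd68). In the same comparison 4 of 6 fibroblast markers (Dpt, Lum, Dcn and Pi16) and 6 of 8 smooth muscle markers were called lower. The other fibroblast markers, Col1a1 (0.40, all 4 libraries above saline) and Pdgfra (0.16), lay above 0 and were not called. Summed fibroblast markers were 28093 to 35856 CPM against 21278 to 27986.5 CPM in saline. Col1a1 made up most of that sum, at a mean of 29994 CPM in PPE week 1. The part of these markers in the results was not tested.

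**Figure D5:**
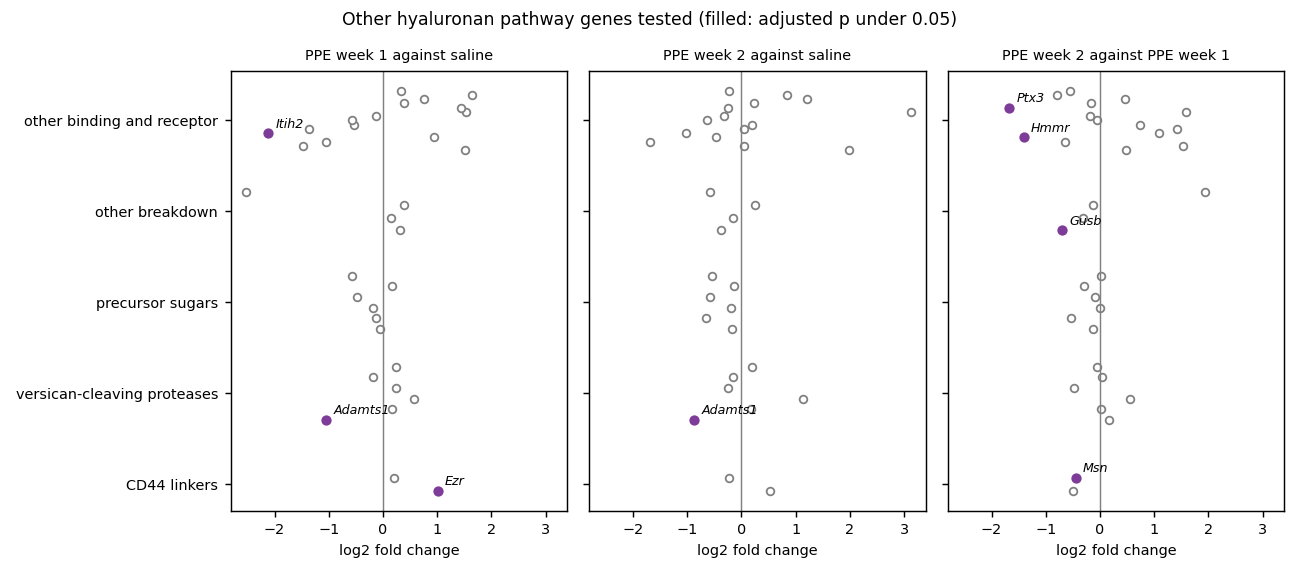
Log2 fold change (x axes) of the 33 tested genes of the wider hyaluronan pathway in 5 groups by role (y axis) for the 3 comparisons, filled and named where the adjusted p was under 0.05. The named points are Itih2, Adamts1 and Ezr at PPE week 1, Adamts1 at PPE week 2, and Hmmr, Ptx3, Gusb and Msn between the PPE weeks, the last 4 all below 0.

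The genes whose profile over the 12 libraries was nearest to that of Has2, by the root mean square difference of centred log2 CPM, were Snord15b (0.85), Stac2 (0.88) and Raet1d (0.96), where the profile of Has2 itself had a root mean square of 1.71. For Hyal1 the nearest were Gm10400 (0.32), Map1b (0.35) and Id4 (0.35), against 0.84 for Hyal1 itself. For Hyal2 they were Itpk1, Olfml2a and Hip1r, for Has3 Garem1, Ulk3 and Phlpp1, and for Has1 Dcps, Zpr1 and Ddx31. For Cemip they were Gar1, P4ha3 and Pgm2, for Cd44 Odr4, Gtf2a1 and Trp53rka, for the Vcan row Thyn1, Dynlt1a and Pogk, and for Tnfaip6 Rreb1, Harbi1 and Usp14. None of these 27 nearest genes is one of the 9, and the likeness is a description over 12 libraries chosen from 12721 candidates.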

How the data were processed

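Libraries of total RNA from 12 aortas, 4 per group, were made by the TrueSeq RNA kit, version 2, per the labels' protocols, a kit that does not mark strand. The authors deposited raw counts per RefSeq accession, and bcl2fastq, DESeq2 and mm10 are the names found in the submitters' processing notes. Aligner, counter and annotation: not given in the sources used here. A deposited table of the authors' comparisons with saline gives log2 fold changes and p-values. Of 34755 accessions, 34419 were named through RefSeq, 197 through GENCODE, and 139 stayed unnamed. The members and gene lists were chosen with earlier results of these data known. Counts were tested with edgeR 4.0.16 (R 4.3.3, TMM scaling, filterByExpr with a minimum count of 10, robust quasi-likelihood fit, 3 group means over all 12 libraries) and Benjamini-Hochberg adjustment over 12756 rows. CPM are TMM-scaled, and fold changes use edgeR's fitted log2 values. SE is the log2 fold change divided by the square root of F. Depth was 8343313 to 12269131 counts per library, and 4 libraries per group limit the precision. Of counts from 2 to 9, 61.7% to 74.9% per library were even, so counts may hold both mates of a pair, and halved counts were tried. The procedure was tested on simulated data, in which the ribosomal RNA precursor share was not set to differ between the groups. That test therefore does not bear on the calls lost with this share in the model. DESeq2 1.42.0, limma-voom 3.58.1, other scalings, filters, sample sets, covariates and left-out libraries were alternatives. Replicate numbers did not pair the libraries. All 9 members were named, with up to 10 called genes of the wider pathway per comparison and the 3 nearest profiles per member.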

Additional observations from a re-analysis of the deposited data

Results flagged for a closer look

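On the CPM scale no library of the 9 genes stood apart from its group by Dixon's criterion in the 27 groups of 4 checked. On the log2 CPM scale, looked at after the data were seen, 1 did: Tnfaip6 at 0 counts in PPE week 2 replicate 2 was at -2.36, with the gap to the next library 0.88 of the group's range, a value set by the prior count of 2. Of the 42 members and wider pathway genes tested, 6 differed between the PPE weeks, where 6.59% of all rows were called, in the edgeR test of that difference, after the same contrast with saline. Has2 differed by -3.14 on the log2 scale and lay lower in all 4 libraries of PPE week 2. Hyal1 differed by 1.46, with 1 library of PPE week 2 inside the range of PPE week 1. The wider pathway genes Ptx3, Hmmr, Gusb and Msn differed by -1.68, -1.41, -0.70 and -0.45.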

How the results depend on the processing

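Of 840 fold changes under alternatives for 35 results, 746 kept direction and side of the threshold, 68 lost the call, 1 gained it and 25, none of them called, changed sign. Of members lower at PPE week 1, 0 were called with total-count scaling and with the ribosomal RNA precursor share as covariate. At PPE week 2 against saline 1 was higher with total-count scaling (Hyal2), and 0 were lower with only the 8 libraries and with the covariate. Between the PPE weeks 0 were higher with only the 8 libraries and with the covariate. Leaving out libraries gave 0 to 1 for each of these counts that moved. Total-count scaling shifted the median of all rows by 0.28, 0.54 and 0.23. Over all rows (508 and 499, 166 and 172, 481 and 360 higher and lower), DESeq2 called 835 and 767, 412 and 343, 812 and 651, the 8 libraries alone 1113 and 913, 33 and 41, 337 and 184, the covariate 23 and 59, 0 and 0, 54 and 15, and limma-voom 110 higher at PPE week 2 and 607 lower between the PPE weeks.

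Signs changed as follows. At PPE week 1, total-count scaling gave 0.056 for Cd44 and 0.141 for Vcan, and the covariate gave 0.731 for Vcan. At PPE week 2 against saline, Hyal1 was -0.183 with limma-voom, -0.0096 with no filter and -0.392 with the covariate, which gave -0.125 for Has3 and 0.536 for Vcan. Between the PPE weeks, total-count scaling gave 0.103 for Has1. Leaving out libraries gave -0.0541 to 0.381 for Hyal2, -0.493 to 0.0778 for Cd44 and -0.675 to 0.439 for Vcan at PPE week 1, -0.288 to 0.254 for Hyal1 at PPE week 2 against saline, and -0.849 to 0.164 for Has1 and -0.795 to 0.101 for Tnfaip6 between the PPE weeks. The ribosomal RNA precursor share differed from saline by -12.7 to -7.87 percentage points at PPE week 1 and by -22.6 to -18.1 at PPE week 2, where 3 against 4 libraries cannot give an exact p below 0.0571. Beyond what each alternative does by construction, the cause of these changes was not tested.

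Same-numbered libraries of different groups correlated at -0.0881 to 0.0353 over 12 pairs, so the labels' numbers were not taken as pairs. With the replicate block the members called stayed at the same counts, Cd44 at PPE week 1 was 0.0632, Hyal1 at PPE week 2 against saline was -0.0001, and all rows called were 91 and 113 at PPE week 2 against saline. The setting with at least 1 CPM in 4 libraries kept the same 12756 rows. Depth limits Has2 at PPE week 2, where 1 library held 4 counts, and Tnfaip6, where 1 held 0.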

Other observations

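Ratios of counts within a library do not depend on scaling between libraries, and they are given here as descriptions, with no test. Hyal1 gave more counts than Hyal2 in all 4 saline libraries, at 0.295 to 0.554 Hyal2 counts per Hyal1 count. At PPE week 1 the ratio was 0.713 to 2.46 and at PPE week 2 it was 0.474 to 1.64. Has2 counts per Hyal1 count, a synthase set against a hyaluronidase, were 0.441 to 0.697 in saline, 1.72 to 4.06 at PPE week 1 and 0.0140 to 0.145 at PPE week 2, so the 3 groups did not overlap. Both genes had been called in the comparisons of the report, and the ratio restates those results. Cemip counts per Hyal1 count were 0.494 to 1.32 in saline, 1.71 to 4.96 at PPE week 1 and 0.0669 to 1.61 at PPE week 2, which spans the saline range.

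Among the 7 available promoter windows of the 9 genes, that of Tnfaip6 was the one with a match to the AP-1 site (TGANTCA), which 6.749% of mouse windows hold. The Cemip window was the one with a TATA box (TATAAA, 12.37% of windows), and the Cd44 window the one with the hypoxia response core (ACGTG, 16.57%). These are matches of letters and no evidence of binding.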
